A study of Homo sapiens with 8 samples.

Results

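The genes of the chromosome 16 long arm were examined in ribosome profiling libraries of the human cell line HepG2. Members were the genes of the deposited translation efficiency (TE) table whose first annotated exon started on chromosome 16 past 46000000 (hg38), leaving out genes whose names begin with MT1, MT2, PSM, RPL, COX, NDUF or ZNF, as well as NQO1, HP, AARS and NOB1. This gave 231 of the 11244 genes of that table, 230 of them protein coding, and 16 further genes of the arm were left out by name. They were selected on the METTL5-KO against METTL5-WT difference, which was known to run along the whole arm, so values of that contrast are given as a description, without p-values. The first member starts at 46578591 and the last ends at 90044975.

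The study compared HepG2 cells with METTL5 intact (METTL5-WT) with HepG2 cells whose METTL5 gene was disrupted by CRISPR/Cas9 (METTL5-KO, guides set to cut out exons 2 and 3 per the labels, 3 and 4 per the study's methods). All cells received cycloheximide, which holds ribosomes in place, before lysis. From each of 4 lysates, 2 per genotype, an input library of total RNA and a library of ribosome-protected fragments (RPF) were made, which gives 8 libraries in 4 groups of 2. Cells of each genotype were expanded from a single isolated cell, and which clone gave which replicate is not given in the sources used here. Clone and genotype therefore cannot be told apart, and DNA copy number was not measured in these libraries.

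Input libraries held between 10710226 and 15307257 counts, and the RPF reads in the TE table ran from 3970779 to 9255921, with both METTL5-WT RPF libraries the shallower. METTL5 itself had 490 and 542 input counts in METTL5-WT against 208 and 151 in METTL5-KO. The label HepG2 was checked against 10 hepatocyte-lineage markers, among them ALB, AFP, APOA1, TTR and HNF4A, and none exceeded 9 input counts in any library, so these defining markers were at or near 0. Of the 3 fibroblast markers, COL3A1 had between 2536 and 3317 counts, COL1A1 between 429 and 937 and PDGFRB between 52 and 83. Endothelial markers reached 9 counts at most and leukocyte markers 2. The part of this departure from the label in the results was not tested, and HepG2 is used below as the label's name.

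A chromosome arm carries genes that share no function, and what they share is their place. Each gene is read from its own promoter, so neighbours on an arm can be expressed at very different levels. RNA levels and ribosome footprints are separate readings: footprints count ribosomes on the message, and TE is the footprint level relative to the RNA level. The long arm of chromosome 16 holds, among others, the cadherin genes, housekeeping enzymes, splicing and replication factors and a cluster of carboxylesterases.

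Promoters were taken from RefSeq (GRCh38.p14), where 180 of the 231 members had an entry. The 250 bases before the RefSeq start of 4 genes are printed because they were those with an entry among the 4 largest input rises (GNAO1, OSGIN1) and the 3 deepest input falls (CMTM3, ADGRG1), taken over members with a mean deposited value of at least 20. All 4 are on the plus strand, GNAO1 at chr16:56191239-56191488, OSGIN1 at chr16:83952990-83953239, CMTM3 at chr16:66604481-66604730 and ADGRG1 at chr16:57619488-57619737. Capitals mark matches on either strand to any of 5 textbook motifs: the CRE (TGACGTCA), the AP-1 site (TGANTCA), the antioxidant response core (TGACNNNGC, which can overlap an AP-1 site), the GAS core (TTCNNNGAA) and the TATA box (TATAAA).
GNAO1: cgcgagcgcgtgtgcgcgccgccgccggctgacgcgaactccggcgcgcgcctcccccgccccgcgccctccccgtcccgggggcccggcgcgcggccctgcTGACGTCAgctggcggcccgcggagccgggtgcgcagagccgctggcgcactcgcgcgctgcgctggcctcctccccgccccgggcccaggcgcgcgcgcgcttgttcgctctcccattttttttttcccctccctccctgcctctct
OSGIN1: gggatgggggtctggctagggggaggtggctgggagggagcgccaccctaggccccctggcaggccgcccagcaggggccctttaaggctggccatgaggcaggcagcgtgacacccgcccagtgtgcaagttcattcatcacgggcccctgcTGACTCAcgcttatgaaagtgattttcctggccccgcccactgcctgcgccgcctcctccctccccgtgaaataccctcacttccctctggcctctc
CMTM3: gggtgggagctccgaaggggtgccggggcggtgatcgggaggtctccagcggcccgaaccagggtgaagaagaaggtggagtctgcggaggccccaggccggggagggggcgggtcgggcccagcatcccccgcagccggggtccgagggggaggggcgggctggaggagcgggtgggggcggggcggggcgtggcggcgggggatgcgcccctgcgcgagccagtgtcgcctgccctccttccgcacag
ADGRG1: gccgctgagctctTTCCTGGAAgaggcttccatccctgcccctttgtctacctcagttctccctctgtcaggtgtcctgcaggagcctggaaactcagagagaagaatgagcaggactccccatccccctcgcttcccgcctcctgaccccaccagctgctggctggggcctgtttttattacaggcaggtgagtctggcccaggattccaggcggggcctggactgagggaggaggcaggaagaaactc
The GNAO1 stretch held a CRE, a motif found in 5.56% of the 180 member promoters, 3.06% of 9050 promoters of TE table genes and 1.65% of all 35116 promoters. In the OSGIN1 stretch there was an AP-1 site, present in 3.33% of member promoters, 3.54% of those of TE table genes and 6.57% of all. The ADGRG1 stretch held a GAS core (4.44% of member promoters, 5.48% of those of TE table genes and 6.57% of all), and the CMTM3 stretch held none of the 5 motifs. The antioxidant response core was in 13.3% of member promoters, 12.2% of those of TE table genes and 10.9% of all, and the TATA box in 4.44%, 4.75% and 10.7%. The 250-base stretches had 44 CG dinucleotides in GNAO1, 25 in CMTM3, 10 in OSGIN1 and 4 in ADGRG1, with a median of 23 over member promoters and 22 over those of the TE table. The counts of the rising and falling members overlapped, and motif matches describe letters only.

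Input RNA of the long arm was lower in METTL5-KO. In each library the members together took 1.54% and 1.55% of the TE table's input reads in METTL5-WT against 1.10% and 1.10% in METTL5-KO (Wilson 95% half-width at most 0.00763 points, counting error only), or 1.54 ± 0.00389% (SD, n = 2) against 1.10 ± 0.0031%. The share was lower in both METTL5-KO libraries than in both METTL5-WT libraries. In RPF the shares were 1.38% and 1.38% in METTL5-WT against 0.900% and 0.899% in METTL5-KO. In bulk RNA, fewer cells with the RNA and less RNA per cell cannot be told apart.

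Gene by gene, the median input log2 fold change (METTL5-KO over METTL5-WT, edgeR) over the 223 members tested was -0.48, a METTL5-KO level at 71.5% of METTL5-WT, with quartiles at -0.69 and -0.22. Over all 14054 genes tested the median was -0.00, and the quartile range of the members, 0.47 wide, was about as wide as that of genes on other chromosomes, 0.48. The members' fold changes thus lay lower, with a width over all members near that of genes on other chromosomes. Of the 223, 197 lay below 0, 144 between -0.8 and -0.2, 10 below -1 and 11 above 0.5. The other 8 members were too low to test, with input values between 0.603 and 9.24 in every library: NKD1, HSF4, SLC9A5, CARMIL2, TSNAXIP1, CDH1, HAS3 and DNAAF1. Both METTL5-KO input values lay below both METTL5-WT values in 175 of the 231 members, above both in 13, and overlapped in 43, beside 31.4% of the TE table with both METTL5-KO values below. The edgeR test (Benjamini-Hochberg adjusted p under 0.05) called 121 members lower, where 10.6% of all genes tested were called lower, and 7 higher, where 11.8% were. Lower calls numbered 49 without METTL5-WT replicate 1 and 61 without METTL5-WT replicate 2. Since the contrast chose the members, nothing is read from these shares.

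Between lysates the arm moved alike in its median. The median member difference in input was -0.47 between the lysates numbered 1 and -0.44 between those numbered 2, and -0.49 and -0.41 for the crossed pairs. Between the 2 METTL5-WT libraries it was 0.01, and between the 2 METTL5-KO libraries 0.08. Gene by gene the METTL5-KO input libraries differed more, with a quartile range over members of 0.36 against 0.17 between the METTL5-WT libraries. On other chromosomes these ranges were 0.39 and 0.22. For RPF the 4 differences across genotype ran from -0.54 to -0.50, against -0.02 within METTL5-WT and -0.01 within METTL5-KO. In the plot of library medians the METTL5-KO libraries stand well apart from the METTL5-WT libraries while genes on other chromosomes stay near 0.

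**Figure D1:**
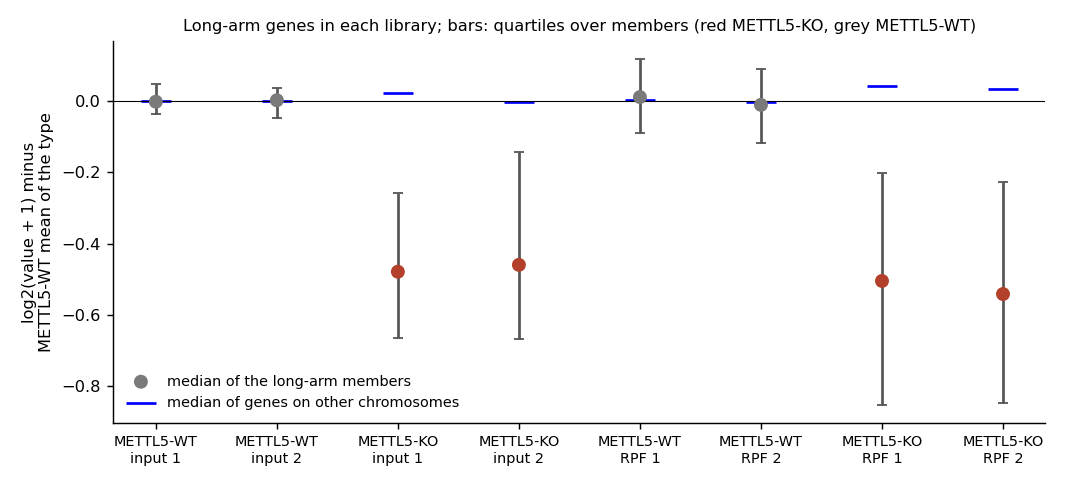
Median over the 231 long-arm members (circles, with the quartiles as bars) of log2(value + 1) minus the METTL5-WT mean of the same library type, for each of the 8 libraries, with the median of genes on other chromosomes as a blue dash. METTL5-KO medians lie at -0.48 and -0.46 in input and at -0.50 and -0.54 in RPF, and other chromosomes lie within 0.05 of 0.

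The spread was wider in low genes. In the 77 members with the highest mean input value (393 to 6613 on the deposited scale of reads divided by a size factor), the median log2 fold change was -0.55, the quartile range 0.31 and 1 gene lay above 0. In the middle 77 the median was -0.43 with a quartile range of 0.46. The lowest 77 (1.94 to 138) include the 8 members not tested. Those tested among them had a median of -0.38, a quartile range of 0.72 and 18 genes above 0. Thus 18 of the 26 members above 0 were among the lowest in level, where counts are the least precise.

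The 5 members with the highest METTL5-WT input values show the common pattern. SLC7A5, a subunit of the large neutral amino acid transporter (16:87830023-87869507), had input values of 7188 and 7436 in METTL5-WT against 5543 and 6285 in METTL5-KO, and its fold change of -0.32 ± 0.12 (log2, SE) was not called. CNOT1, the scaffold of the CCR4-NOT deadenylase, had 3717 and 3802 against 2697 and 2495 (-0.55 ± 0.11). SF3B3, a splicing factor of the U2 particle, had 3146 and 3376 against 1872 and 2002 (-0.76 ± 0.11). In these 3 genes no METTL5-KO value reached a METTL5-WT value, and the same was true of CENPN, a centromere protein, at -0.58 ± 0.11 and of KARS, the lysyl-tRNA synthetase, at -0.55 ± 0.11. The calls of CNOT1, CENPN and KARS were lost when either METTL5-WT replicate was left out.

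The rule's bound fell inside the gap between the arms. The nearest members past it were SHCBP1 (-0.84), VPS35, a retromer subunit (-0.55), and ORC6, an origin recognition subunit (-0.79). The nearest genes on the other side, of which the last started at 31873807, were ZNF267 (-0.40), ZNF720 (-0.41) and C16orf58 (-0.26). Fold changes were thus below 0 on both sides of the bound.

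Along the arm the input median was below 0 in each of the 9 segments of 5 Mb that held members. It was -0.79 in the 13 genes starting from 45 to 50 Mb, all 13 of them below 0, and -0.60 in the 14 tested of the next 15. From 55 to 90 Mb the medians ran from -0.55 to -0.42, and the last 2 genes, past 90 Mb, had a median of -0.91. No member started between 60 and 65 Mb. With a trend on coding GC content removed from each library, a step added after the values had been seen, the first 2 segments stood at -0.70 and -0.54 and those from 55 to 90 Mb between -0.54 and -0.44, so the difference between the first segment and the rest became smaller. The median coding GC content of members was 45.1% in the first segment and 61.0% from 85 to 90 Mb.

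**Figure D2:**
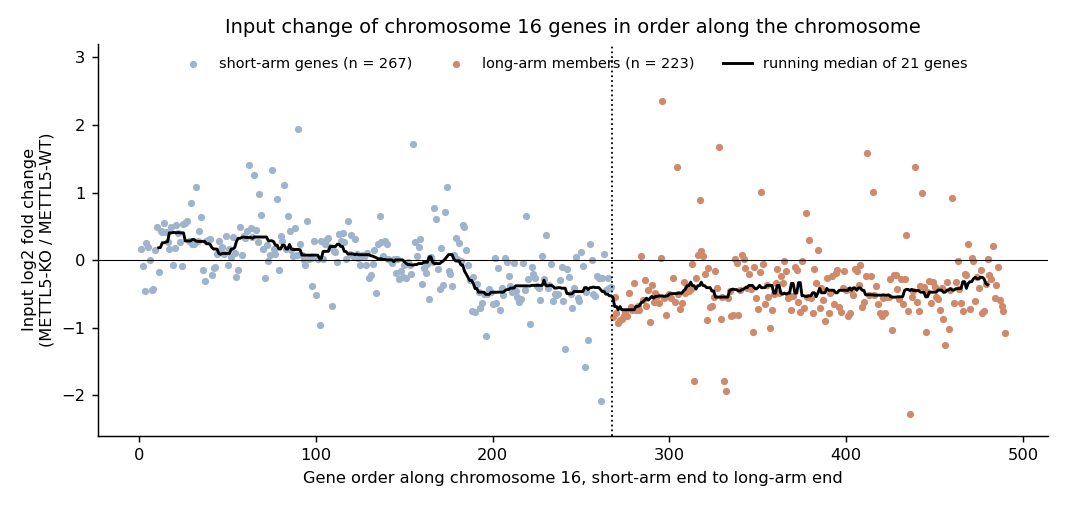
Input log2 fold change of each tested gene of chromosome 16 in gene order from the short-arm end to the long-arm end (blue 267 short-arm genes, orange 223 members), with a running median of 21 genes (line) and a dotted line between the arms. The running median lies below 0 over the whole long arm and over the last part of the short arm.

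The lower input level did not end at the centromere. On the short arm, segments from 5 to 20 Mb had medians between -0.05 and 0.01, and the first 5 Mb had 0.23 (0.09 with the GC trend removed). In those first 5 Mb the median difference was 0.09 between the lysates numbered 1 and 0.39 between those numbered 2. In contrast, the segment from 20 to 25 Mb had -0.28, that from 25 to 30 Mb -0.41 and that from 30 to 35 Mb -0.40. Gene by gene, EEF2K at 22.2 Mb was at 0.49, POLR3E at 22.3 Mb at 0.15 and CDR2 next to it at -0.07, whereas the 10 following genes, from USP31 at 23.1 Mb through COG7 and EARS2 to RBBP6 at 24.5 Mb, were between -1.13 and -0.26. Split at 23 Mb, a place picked from these values, 81 tested short-arm genes past it had a median of -0.41 with 71 below 0, and 186 before it a median of 0.16 with 55 below 0. Taken whole, other chromosomes were near 0, from -0.12 on chromosome 13 to 0.20 on chromosome 19, except chromosome 20, whose 305 genes had a median of -0.47. Medians of their arms are not given here, and differences within a chromosome may not show in its median. Against METTL5-WT, the long arm was thus at a level like that of the neighbouring short-arm stretch and of chromosome 20.

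Genes of the arm that the rule did not take had medians near that of the members. The 16 genes left out by name had an input median of -0.45. Another 40 long-arm genes outside the TE table had enough counts for the input test, and their median was -0.42 with 26 below 0. These spread more widely than the members, with a quartile range of 0.89 against 0.47. Of the 40, 5 were called lower, where 10.6% of all genes tested were, and 1, CES1, higher, where 11.8% were. Among the members 121 of 223 tested were called lower, but only 20 of the 77 lowest in input value, 8 of which were not tested. Most of the 40 had low counts, where few calls can be made, so these numbers are not compared.

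Among members with a mean value of at least 20 and no overlap between genotypes, the 8 lowest input fold changes were those of CDH13, CMTM3, ADGRG1, FOXC2, GAS8, COTL1, MAP1LC3B and MYLK3. CDH13, which encodes T-cadherin (16:82626965-83800640), had input values of 247 and 217 in METTL5-WT against 48.2 and 48.7 in METTL5-KO (log2 -2.27 ± 0.18). ADGRG1, an adhesion G protein-coupled receptor (16:57610652-57665580), had 633 and 676 against 177 and 205 (-1.78 ± 0.13). Both genes fell about as far in RPF, with log2 fold changes of -2.12 ± 0.23 for CDH13 and -1.78 ± 0.16 for ADGRG1, and their TE changes of 0.11 and -0.01 were smaller than their errors.

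CMTM3, a MARVEL-domain membrane protein, had 46.3 and 39.8 against 6.03 and 16.1 in input (-1.94 ± 0.40). Its RPF values, 16.6 and 38.1 against 9.65 and 20.1, overlapped between the genotypes. FOXC2, a forkhead transcription factor, had 116 and 126 against 60.9 and 41.7 in input (-1.26 ± 0.22). COTL1, an actin-binding protein, fell by 1.06, MAP1LC3B, the LC3 protein of autophagosomes, by 1.02, GAS8, a dynein regulator of cilia, by 1.08 and MYLK3, a myosin kinase, by 0.93, each with no overlap between genotypes.

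Against the arm, 7 members were called higher in input. GNAO1, an alpha subunit of inhibitory G proteins (16:56191390-56357444), was the largest, with 28.6 and 19.2 in METTL5-WT against 110 and 139 in METTL5-KO (2.36 ± 0.26), and its RPF values rose with it, from 45.1 and 36.1 to 191 and 151. NLRC5, the transactivator of MHC class I genes (16:56989485-57083531), had 150 and 111 against 332 and 355 (1.38 ± 0.16). OSGIN1, an oxidative stress response gene known as a target of NRF2 (16:83931311-83966332), had 81.0 and 49.0 against 151 and 190 (1.38 ± 0.22). In all 3 genes both METTL5-KO values stood above both METTL5-WT values, in input as in RPF, although the RPF call of NLRC5 (0.62 ± 0.19) was lost without any 1 of the 4 lysates.

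WFDC1, a secreted protease inhibitor family member, had 278 and 244 against 474 and 577 in input (1.00 ± 0.14) and 268 and 211 against 461 and 414 in RPF. JPH3, a junctophilin, was at 0.92 ± 0.30 with a call that DESeq2 did not make, CDH3, P-cadherin, at 0.70 ± 0.17, and FA2H, a fatty acid hydroxylase with low values of 8.17 and 5.68 against 21.7 and 20.6, at 1.58 ± 0.49. In RPF the METTL5-KO values of CDH3 and FA2H overlapped those of METTL5-WT. Several members that lie between GNAO1 and NLRC5 were called lower in input. Among them were NUDT21, a poly(A) site factor, at -0.81 and HERPUD1, a protein of endoplasmic reticulum quality control, at -0.62. SLC12A3, which also lies between them, was at -0.26 without a call.

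A further group stayed at the METTL5-WT level in input. CDT1, a replication licensing factor, had 325 and 323 against 321 and 345 (0.03 ± 0.13), and its neighbour APRT, adenine phosphoribosyltransferase, had 645 and 624 against 517 and 745 (-0.02 ± 0.14). KIFC3, a minus-end kinesin, was at 0.08 ± 0.13, BANP, a nuclear matrix protein, at -0.01 ± 0.16 and TRADD, the TNF receptor adaptor, at 0.01 ± 0.25. In each of these the genotypes overlapped.

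**Figure D3:**
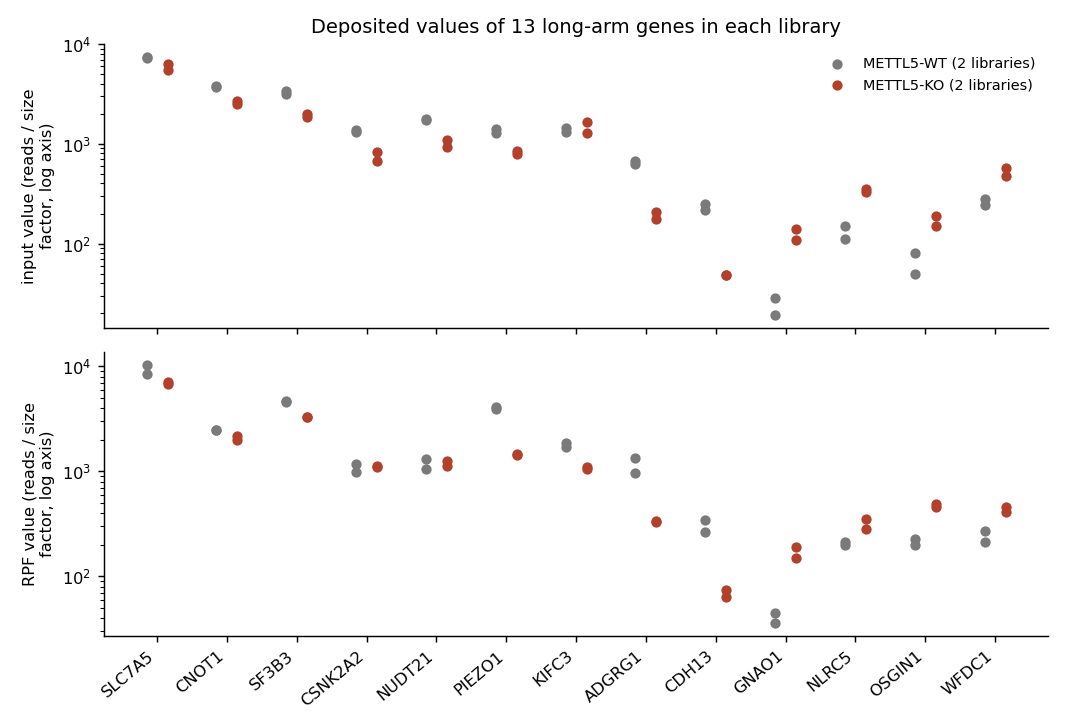
Deposited values (reads divided by a size factor, log axis) of 13 long-arm genes in input (top) and RPF (bottom), each point a library, grey METTL5-WT and red METTL5-KO. CDH13 and ADGRG1 are lower in METTL5-KO in both, GNAO1, NLRC5, OSGIN1 and WFDC1 are higher in both, and CSNK2A2 and NUDT21 are lower in input only.

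Grouped by role, the members of most lists stood near the arm's median. Beside the counts of each list below, 52.4% of the 231 members and 10.6% of all genes tested were called lower in input. Higher calls were 3.03% of members and 11.8% of all genes tested. The lists hold members selected on this contrast, so nothing about a role is read from their counts. Of 20 RNA processing and ribosome biogenesis genes, 15 were called lower in input and 0 higher (median -0.55, all members -0.48), among them NIP7, a factor of the large ribosomal subunit (-0.71), and POLR2C, an RNA polymerase II subunit (-0.45). DDX19A and DDX19B, near-identical RNA helicases, were at -0.65 and -0.24, and reads may be split between them. Of 12 mitochondrial and peroxisomal enzymes, 8 were called lower and 0 higher (median -0.52), with GPT2, an alanine aminotransferase, and TK2, the mitochondrial thymidine kinase, both at -0.87.

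Among 17 transcription factors and chromatin regulators, 11 were called lower and 1, NLRC5, higher (median -0.50). CBFB, the partner of RUNX proteins, had 1258 and 1221 against 793 and 634, and NFAT5, the factor of the response to high salt, had 1083 and 1084 against 624 and 544, a log2 fold change of -0.91. CTCF, the insulator protein, was closer to 0 at -0.37. Of 13 replication, telomere and chromosome segregation genes, 8 were called lower and 0 higher (median -0.55), with FANCA, of the Fanconi repair complex, at -0.56 and TERF2, of the telomere, at -0.42 without a call.

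For vesicle traffic, autophagy and lysosome, 10 of 17 genes were called lower and 0 higher (median -0.52). The 16 ubiquitin and protein folding genes had 9 lower and 0 higher (median -0.51), and all 16 were below 0. Of the 6 lipid and carboxylesterase enzymes 1 was called lower (HSDL1) and 1 higher (FA2H), with a median of -0.09, the nearest to 0 of these lists. CES2, a carboxylesterase, had 187 and 205 against 177 and 208. The 3 cadherins went apart, with CDH13 lower, CDH3 higher and CDH1, E-cadherin, at or under 8.44 in every input library. Of 4 immune signalling genes, CYBA, of the phagocyte oxidase, and COTL1 were called lower and TRADD and PLCG2 were not called.

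Footprints on long-arm messages were lower as well. All 231 members could be tested in RPF, and the median log2 fold change on the log2(value + 1) scale (limma) was -0.53, against 0.02 over all 11240 genes tested and -0.14 over the short arm. The members called by both limma and edgeR were 105 lower, where 12.5% of all genes tested were, and 4 higher (GNAO1, NLRC5, OSGIN1 and WFDC1), where 14.1% were. Of the 121 members called lower in input, 68 (56.2%) were also called lower in RPF, which is 64.8% of the 105. The same overlap over all genes is not given here, so nothing particular to the arm is read from these shares. No member was called in opposite directions in input and RPF.

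The largest RPF falls beside CDH13 and ADGRG1 were in low genes. AKTIP, an AKT-binding protein also known at telomeres, had RPF values of 40.4 and 50.1 in METTL5-WT against 7.24 and 12.3 in METTL5-KO (-2.14 ± 0.36), while its input values were 78.3 and 88.1 against 62.7 and 67.3. SLC9A5, a sodium-proton exchanger, had 26.1 and 46.1 against 6.03 and 5.58 in RPF (-2.39 ± 0.58), with input under 10 throughout. ZFPM1, a GATA cofactor, was at -1.61 ± 0.46. The RPF call of SLC9A5 was lost without METTL5-WT replicate 2 or either METTL5-KO replicate, and that of ZFPM1 without either METTL5-KO replicate. ZFP1, a zinc finger protein, had RPF values of 30.9 and 14.04 against 32.6 and 41.3 without a call, although its input was called lower (-0.51).

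TE of the arm differed little from that of all genes. The median TE log2 fold change of members was -0.13, with 143 of 231 below 0, against 0.02 over all genes tested and -0.16 over the short arm. Members had a median coding GC content of 56.9% against 52.0% on other chromosomes. Over the GC ranges below, the median TE change was lower at higher GC content, in members and in genes on other chromosomes. Whether GC content accounts for the members' TE median was not tested. In the 77 members of highest GC content (59.9% to 78.4%) the TE median was -0.32, against -0.31 in 2535 genes of the same GC range on other chromosomes. In the middle 76 (51.9% to 59.8%) it was -0.18, lower than the -0.05 of 2813 such genes elsewhere. For the 77 of lowest GC content (38.8% to 51.7%) it was 0.25, against 0.21 in 4892 such genes elsewhere. With the GC trend removed, the member median for TE was -0.00, while it was -0.50 for input and -0.49 for RPF. Input and RPF differences thus stayed close to their size.

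**Figure D4:**
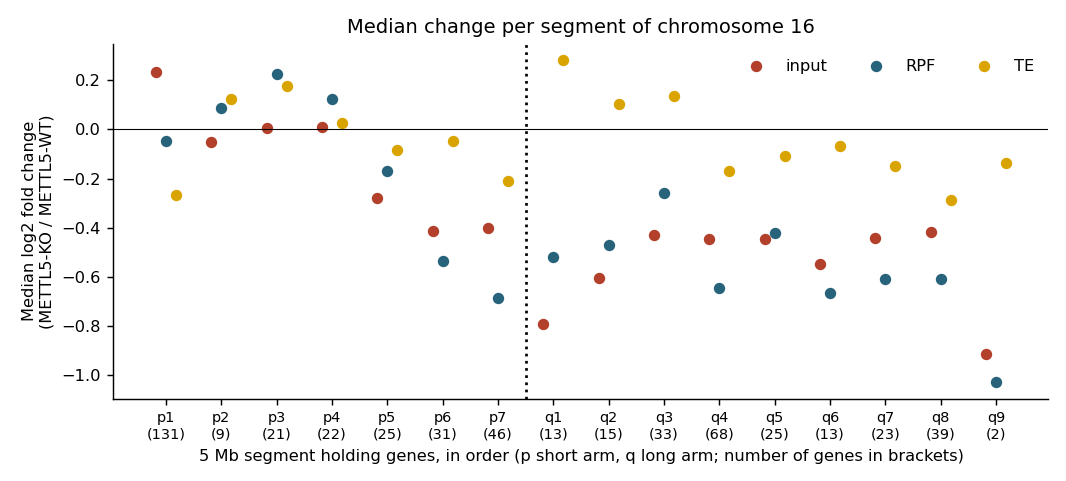
Median log2 fold change (METTL5-KO over METTL5-WT) of input (red), RPF (blue) and TE (yellow) in each 5 Mb segment of chromosome 16 that holds genes, in order, with gene numbers in brackets and a dotted line between the arms. Input and RPF medians lie below 0 in all 9 long-arm segments, and TE medians are 0.28, 0.10 and 0.14 in the first 3 and below 0 in the others.

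In METTL5-WT the members had ratios of RPF to input values near those of other genes. The members' median log2 ratio was 0.10, with quartiles at -0.69 and 0.83, against -0.01 on other chromosomes. RPF is counted over coding sequence and input over exons, so this ratio is not a rate of translation.

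TE calls of single members came at about the share of all genes tested, so nothing about the arm is read from their number. Limma and edgeR both called 5 members higher, where 2.65% of all genes tested were, and 5 lower, where 2.06% were, so calls were 2.16% of members in either direction. The 5 higher were genes whose RNA was lower and whose footprints were not. CSNK2A2, a catalytic subunit of casein kinase 2 (16:58157907-58198106), had input values of 1326 and 1390 against 824 and 667, and RPF values of 1185 and 991 against 1132 and 1101, a TE change of 0.92 ± 0.17. NUDT21, which sets poly(A) sites (16:56429133-56452199), had 1731 and 1765 against 1081 and 930 in input and 1321 and 1049 against 1260 and 1118 in RPF, a TE change of 0.81 ± 0.17.

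ORC6, of the origin recognition complex (16:46689643-46698394), had input values of 607 and 577 against 381 and 312 and RPF values of 356 and 405 against 392 and 387 (TE 0.81 ± 0.20). GINS3, of the replicative helicase, had 152 and 164 against 180 and 190 in RPF (TE 0.90 ± 0.24), and RFWD3, a ubiquitin ligase of the DNA damage response, 1223 and 1111 against 1078 and 1143 (TE 0.54 ± 0.15). Input separated the genotypes in all 5 genes. In RPF they overlapped in all but GINS3, where METTL5-KO was above METTL5-WT.

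In the 5 lower, footprints fell, and by more than the RNA differed. PIEZO1, a mechanically gated ion channel (16:88715338-88785220), had input values of 1402 and 1278 against 782 and 848 and RPF values of 3970 and 4115 against 1454 and 1447, a TE change of -0.76 ± 0.14. KIFC3 (16:57758217-57863053), level in input, had RPF values of 1884 and 1695 against 1052 and 1091 (TE -0.82 ± 0.17). E2F4, a repressive E2F factor, had 387 and 401 against 186 and 175 in RPF (TE -0.71 ± 0.20), ZDHHC7, a palmitoyl transferase, 601 and 592 against 322 and 295 (TE -0.64 ± 0.18), and CMTM4, a relative of CMTM3, 71.3 and 80.2 against 20.5 and 29.0 (TE -1.05 ± 0.29). In these 5 genes the genotypes did not overlap in RPF.

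Each of the 10 TE calls was lost in at least 2 of the alternatives run, and with the GC trend removed 2 higher and 1 lower remained. With the lysate as a block, in which the input and RPF library of a lysate are compared within it, 10 members were called higher and 7 lower. The shares of all genes called under these alternatives are not given here, so nothing about the arm is read from these numbers. AKTIP (TE -1.79 ± 0.50), CES2 (-1.01 ± 0.31), CDK10, a cyclin-dependent kinase (-0.95 ± 0.29), and PDF, the mitochondrial peptide deformylase (-0.94 ± 0.31), had values as low or lower without a call, and PDF lies inside the span of COG8 on the same strand, so reads of these 2 genes may not be separable.

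**Figure D5:**
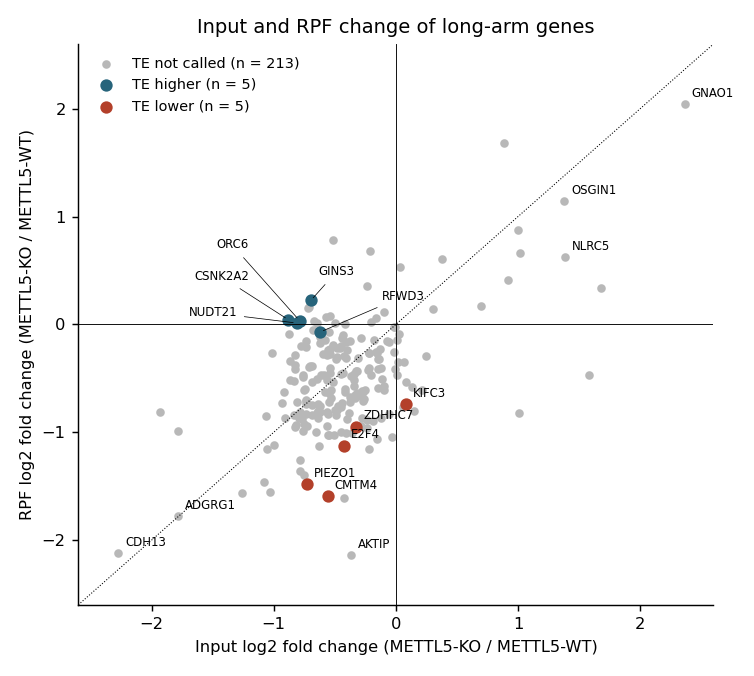
RPF against input log2 fold change (METTL5-KO over METTL5-WT) of the 223 members tested in both, with TE calls in blue (5 higher) and red (5 lower) and the dotted diagonal where TE does not change. Most members lie below 0 on both axes, GNAO1, OSGIN1 and NLRC5 lie above 0 on both, and the 5 genes with higher TE lie at input values of -0.88 to -0.62 with RPF between -0.07 and 0.22.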

How the data were processed

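Members and gene lists were chosen with earlier results of these data known. HepG2 lysates were divided into input RNA and ribosome-protected fragments after nuclease digestion, so input and RPF libraries of a number share a lysate. For input, the authors deposited raw counts per gene (BBDuk trimming, STAR 2.7.3a to hg38, unique reads, featureCounts over exons on the forward strand, version 1.6.0 per the labels, whereas the file header names another). The second deposited table holds a signal per gene, named RPKM, which was read from its values as whole reads divided by 1 size factor per library and not per length, for input and for RPF reads of 25 to 34 bases mapped by the RiboToolkit server. Its columns of log2 fold changes, p-values and adjusted p-values are the authors' own TE comparison and were not used. The unit differed from that assumed in the planned design, so recovered reads were used for the count test.

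Input was tested with edgeR 4.0.16 (TMM scaling, filterByExpr, quasi-likelihood test, R 4.3.3). For RPF and TE, limma 3.58.1 was run on log2(value + 1) over genes averaging 1 or more in both input and RPF libraries, in 1 model of 8 libraries with TE as the interaction. A fold change on that scale understates the change of low genes. A call needed an adjusted p under 0.05 (Benjamini-Hochberg) in limma and in edgeR on recovered reads, in the same direction. For RPF and TE under other pseudocounts, median centring and GC trend removal, only limma was refitted and the main edgeR fit was kept. All tests ran over all genes of a table. They were also run on simulated data with changes larger than the members' median, up and down alike, in well-read genes only. That check therefore does not cover small changes in 1 direction or low genes. Replicate numbers gave no pairing between genotypes, with correlations of deviations of 0.0159 in input and -0.00215 in RPF, and input and RPF of a lysate gave -0.0153 in METTL5-WT and 0.0535 in METTL5-KO. The latter pair comes from the protocol, as both libraries were made from 1 lysate. With 2 samples per group, p-values measure the spread between these samples, which may be technical. Named genes were those with the 8 lowest and 8 highest input, 5 lowest and 5 highest RPF and 5 lowest and 5 highest TE fold changes among members with a mean of at least 20 and no overlap between genotypes, with the 5 highest METTL5-WT input values, the 3 members nearest the bound and the role lists. Other genes (among them APRT, the TE calls KIFC3, PIEZO1 and ZDHHC7, CES1 and the short-arm genes) were named after their values were seen. Coding GC content came from GENCODE 44, and the GC trend was a loess curve (span 0.3) per library. Alternatives were DESeq2 1.42.0, filters, pseudocounts, centring, the replicate block, GC trend removal and leaving out each replicate. Intervals and floors cover counting error only. The values of 1 member are not reported here.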

Additional observations from a re-analysis of the deposited data

Results flagged for a closer look

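One long-arm gene outside the TE table, and so outside the members, stood far above its METTL5-WT level. CES1, a liver carboxylesterase (ENSG00000198848, 16:55802851-55833337, hg38), had 0 and 1 input counts in METTL5-WT against 148 and 200 in METTL5-KO, 348 in all. Per library total this was a ratio of 273 with an exact 95% interval of 48.6 to 10800 that covers counting error only. The METTL5-WT libraries were both at or under 1 count, and the METTL5-KO libraries both above 147. CES1 has near-identical pseudogene copies, so the split of its reads between copies is uncertain and was not tested. It is 1 of the 40 further long-arm genes that entered the input test, where edgeR called it higher. The members' own carboxylesterase, CES2, had overlapping input values.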

How the results depend on the processing

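The input median of members stayed between -0.50 and -0.46 when 1 replicate was left out, and the block on replicate number gave -0.49. Calls of lower input (121) ranged from 49 to 135 without 1 replicate, with 49 without METTL5-WT replicate 1 and 61 without METTL5-WT replicate 2, and calls of higher input (7) from 4 to 10. In a fit that leaves 1 sample in a group, that sample is assumed to vary like the other group. The replicate block gave 128 and 8 calls in input and 103 and 4 in RPF, and for TE, where the block is the lysate, 7 lower and 10 higher, with AKTIP among those gained. The RPF median (-0.53) became -0.51 with a mean of at least 20, -0.51 with median centring, -0.56 with edgeR alone and -0.49 with the GC trend removed, and ran from -0.54 to -0.50 without 1 replicate. The TE median (-0.13) became -0.00 (-0.0037) with the GC trend removed and ran from -0.17 to -0.022 without 1 replicate. Counts of calls in this section lack the share of all genes called in the same setting. Nothing about the arm is read from them. TE calls, 5 lower and 5 higher, became 2 and 8 with median centring, 11 and 8 with edgeR alone and 1 and 2 with the GC trend removed. Without 1 lysate they ran from 0 to 3 lower and 0 to 2 higher. The 0 counts were those without METTL5-KO replicate 2, where limma had 19 lower and 16 higher members at an unadjusted p under 0.05 and edgeR alone called 2 and 2, and, for higher, those without METTL5-WT replicate 2, where limma had 14 and edgeR called 0. By segment, medians moved to -0.54 (GC trend removed) and -0.49 (10 Mb) for 50 to 55 Mb, -0.50 (10 Mb) for 70 to 75 Mb, -0.48 (GC trend removed) for 80 to 85 Mb and -1.02 (GC trend removed) past 90 Mb. Without 1 replicate they ran from -0.53 to -0.44 for 65 to 70 Mb, -0.42 to -0.38 for 70 to 75 Mb and -0.46 to -0.30 for 80 to 85 Mb. Directions turned for the lipid and carboxylesterase list, at 0.017 without METTL5-WT replicate 2 and 0.029 without METTL5-KO replicate 1 (range -0.21 to 0.029, -0.09 with all libraries), and for ADCY7, at -0.039 with the GC trend removed. The cause of these moves was not tested. Of the named input calls, 6 were lost in some setting (CDH3, CENPN, CNOT1, JPH3, KARS, VPS35), each of them when either METTL5-WT replicate was left out. The RPF libraries of METTL5-WT, the shallowest, limit what RPF and TE can show for low genes.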
